A study of Mus musculus with 28 samples.

Results

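The 10 genes described here encode gut hormones or peptides of enteroendocrine cells, or the enzyme that starts serotonin synthesis in the gut. They are Pyy, Gcg, Sct, Cck, Gip, Ghrl, Nts, Sst, Tac1 and Tph1, and they were taken by gene symbol, as a set named with earlier results of these data known. Each symbol matched 1 row, so the members were 10 of 29413 genes in the table of BMP ligands and 10 of 55416 genes in the table of Tgfb. The questions asked of them were whether hormones of the crypt give way to hormones of the villus under each ligand, and whether Pyy rises without the others.

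Enteroendocrine cells are the rare hormone-secreting cells of the intestinal epithelium. They arise in the crypt from progenitors that pass through a short phase of Neurog3 expression, and they keep making hormones while they travel up the villus, where BMP signals are stronger. In the mouse small intestine a single lineage is known to change its hormones on that way: L cells that make Gcg (proglucagon, the precursor of GLP-1) in the crypt go on to make Pyy, Nts and Sct, and enterochromaffin cells that make Tac1 (the precursor of substance P) in the crypt go on to make Sct. Gcg and Tac1 are therefore called crypt-type hormones below, and Sct, Nts and Pyy villus-type hormones.

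Expression was measured by mRNA sequencing in small-intestinal organoids, which are crypt-derived cultures of epithelium alone, from wild-type C57BL/6 mice. The table of BMP ligands held 4 control samples (replicates II, III, IV and VI), 4 treated with BMP2 (the same numbers), 3 with BMP3 (II, III and IV), and 3 each with BMP4, BMP5 or BMP7 (II, III and VI). Tgfb-treated organoids (replicates I, II and III) and 3 untreated samples of the same numbers were deposited as their own table. Crypts were grown for 48 h without added Bmp or Tgfb ligand, and recombinant ligand was then given at 500 ng/ml for 24 h. A further table held 1 sample each of freshly isolated and of E6-immortalised, sorted Pdgfra-positive duodenal mesenchymal cells from PdgfraH2BeGFP mice, which enter no comparison. The labels do not say whether replicates came from separate mice or cultures, so p-values measure the spread between these samples, which may be technical. The age of the mice and the segment of the small intestine are not given in the labels.

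The 3 promoters shown are those of the hormones on which the results turn: Pyy and Sct, which rose, and Gcg, which fell. Each sequence is the 250 bases before the gene's outermost RefSeq start in GRCm38.p6, written 5′ to 3′ on the gene's own strand, the minus strand in each case. Capitals mark matches to any of 4 motifs searched on both strands, namely CAGAC (the Smad box), GGCGCC (the GC-rich Smad site), CANNTG (the E-box bound by factors such as Neurog3 and Neurod1) and TATAAA (the TATA box). No capital stretch below is shared between 2 motifs. The Pyy window is chr11:102107833-102108082, the Gcg window chr2:62483654-62483903 and the Sct window chr7:141279134-141279383.
Pyy: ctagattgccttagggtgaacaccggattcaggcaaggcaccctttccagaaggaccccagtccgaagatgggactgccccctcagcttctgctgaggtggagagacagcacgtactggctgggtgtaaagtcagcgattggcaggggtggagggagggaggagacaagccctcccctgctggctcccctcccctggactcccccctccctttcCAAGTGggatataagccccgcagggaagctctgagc
Gcg: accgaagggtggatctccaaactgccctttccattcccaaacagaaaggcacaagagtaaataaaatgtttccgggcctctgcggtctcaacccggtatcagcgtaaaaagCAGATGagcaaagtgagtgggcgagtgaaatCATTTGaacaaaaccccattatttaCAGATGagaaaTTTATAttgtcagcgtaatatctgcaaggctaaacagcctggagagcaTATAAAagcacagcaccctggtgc
Sct: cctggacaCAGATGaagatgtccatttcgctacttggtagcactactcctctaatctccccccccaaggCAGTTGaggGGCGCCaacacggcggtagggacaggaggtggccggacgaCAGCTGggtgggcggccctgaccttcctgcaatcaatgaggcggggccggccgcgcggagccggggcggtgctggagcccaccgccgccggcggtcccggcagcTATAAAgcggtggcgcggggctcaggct
The Pyy window holds 1 E-box and none of the other motifs. The Gcg window holds 3 E-boxes and 2 TATA boxes, and the Sct window 3 E-boxes, 1 GC-rich Smad site and 1 TATA box. Over the 10 members, the window at the outermost start held an E-box in 9, the GC-rich Smad site in 3 (Sct, Cck and Sst), TATAAA in 2 and the Smad box in 1 (Gip). At other RefSeq starts the motifs differed: another Tph1 window held 2 CAGAC and 2 GGCGCC, and other Ghrl windows held CAGAC. Among 32851 mouse promoter windows of the same length, 66.2% held an E-box, 9.59% GGCGCC, 12.4% TATAAA and 42.2% CAGAC. These windows cover all starts of a gene, while the members were counted at the outermost start only. These matches describe letters in a short window and are not evidence of binding. The submitters' processing notes name GRCm39, so the windows come from another build than the expression values.

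In the BMP table a value is a read count divided by 1 size factor per sample, called a normalized count here. It is not divided by gene length, so values of different genes are not compared with each other. The samples held 21358620 to 24784834 recovered reads, and 1 read was worth 0.826 to 1.28 normalized counts. In the Tgfb table values are TPM (transcript abundances scaled to 1000000 per sample), which are per length, and the depth is unknown. Differences are log2 differences of value + 1 with a standard error (SE), tested with limma and adjusted by Benjamini-Hochberg over all genes of the table that passed a filter on low values, and a gene rose or fell where the adjusted p was under 0.05. A fold is that log2 difference taken back to a ratio, and it understates the change of a gene near 0. All 10 members passed the filters. Pyy in both tables, and Nts in the BMP table, did so only through the groups where they were high, so their adjusted p-values describe genes that had to differ to be tested. As a check of the labels, the BMP target Id1 averaged 132.8 ± 27.4 normalized counts in the 4 controls (SD). Its means were 2810 under BMP2, 1870 under BMP7, 2677 under BMP4, 843 under BMP5 and 129 under BMP3, and it was at 8.51 TPM without Tgfb and 63.6 TPM with it. In bulk RNA, fewer cells of a type and less RNA per cell cannot be told apart, which holds for every value below.

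The crypt-type hormones fell with BMP2, BMP4 and BMP7, and neither passed the test with BMP5. Gcg (ENSMUSG00000000394) was at 678, 598, 389 and 554 normalized counts in the 4 controls. It was at 205, 125, 50.6 and 97.5 with BMP2, at 116, 124 and 41.9 with BMP4 and at 156, 138 and 129 with BMP7. Every sample of these 3 ligands lay below every control. With BMP5 the samples were at 732, 329 and 465, from below the lowest control to above the highest. The log2 change of Gcg was -2.35 with BMP2 (SE 0.374, adjusted p 1.47e-05), which is 5.08-fold lower. It was -2.67 with BMP4 (SE 0.404, adjusted p 1.22e-05, 6.36-fold lower) and -1.94 with BMP7 (SE 0.404, adjusted p 0.00113, 3.85-fold lower). With BMP5 the change was -0.17 with an adjusted p of 0.794.

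Tac1 (ENSMUSG00000061762) showed the same order of ligands. Controls were at 418, 337, 481 and 341 normalized counts. Samples with BMP2 were at 226, 143, 135 and 84.8, those with BMP4 at 151, 164 and 69.4, and those with BMP7 at 176, 239 and 253. None of these 10 samples reached the lowest control. With BMP5 Tac1 was at 431, 377 and 286, overlapping the controls. The gene fell by 1.48 on the log2 scale with BMP2 (SE 0.274, adjusted p 7.8e-05) and by 1.69 with BMP4 (SE 0.296, adjusted p 6.12e-05). With BMP7 it fell by 0.82 (SE 0.296, adjusted p 0.0405), a call that was lost in fits without a filter (0.0615) and without control replicate II (0.0773), control replicate IV (0.0991), or BMP7 replicate II (0.17), III (0.0602) or VI (0.0585).

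The villus-type hormones rose with each of BMP2, BMP4, BMP5 and BMP7. The largest log2 rise among them was that of Pyy with BMP2, BMP5 and BMP7 and that of Sct with BMP4. Sct (ENSMUSG00000038580), which encodes secretin, the hormone that calls up bicarbonate from the pancreas, was at 25.8, 29, 35.5 and 28.1 normalized counts in controls. It was at 1030, 737, 576 and 486 with BMP2 and at 770, 692 and 555 with BMP4. The BMP7 samples lay close together at 207, 218 and 222. With BMP5 they were at 42.2, 140 and 45.6, so replicate III stood apart. That replicate also had the highest Id3, a BMP target that ranged from 61.1 to 378 in the BMP5 samples. Sct rose 22.4-fold with BMP2 (log2 4.48, SE 0.294, adjusted p 1.01e-10), 21.9-fold with BMP4 (log2 4.46, SE 0.318, adjusted p 1.43e-09) and 7.12-fold with BMP7 (log2 2.83, SE 0.318, adjusted p 2.31e-06). With BMP5 the change was 2.16-fold (log2 1.11, SE 0.318, adjusted p 0.0143), and without BMP5 replicate III it was 0.56 on the log2 scale with an adjusted p of 0.124.

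Nts (ENSMUSG00000019890) encodes neurotensin, a peptide of the distal small intestine. It was low in controls, at 4.44, 8.3, 4.44 and 7.43 normalized counts, which are a handful of reads each. With BMP2 it was at 108, 70.3, 71.8 and 60.7, with BMP4 at 34.4, 58.2 and 27.5, with BMP7 at 15.4, 15.5 and 23.1 and with BMP5 at 12.6, 13.9 and 14.6. The 4 ligand groups did not overlap with each other or with the controls, in the order BMP2, BMP4, BMP7, BMP5, control. Some gaps in this order are worth a few reads at most. The nearest BMP5 and BMP7 samples were at 14.6 and 15.4, and the nearest BMP4 and BMP2 samples at 58.2 and 60.7. Between BMP5 and BMP7 the log2 difference of Nts was -0.35 and was not called. The log2 rise of Nts was 3.47 for BMP2 (adjusted p 1.87e-09), 2.49 for BMP4 (9.27e-07), 1.43 for BMP7 (0.00137) and 1.08 for BMP5 (0.013). The BMP5 call was lost without BMP5 replicate VI (adjusted p 0.053).

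Pyy (ENSMUSG00000017311) encodes peptide YY, which slows gut motility and appetite. Controls held 3, 1, 1 and 3 reads of it, or 2.66, 0.83, 0.887 and 2.48 normalized counts. With BMP2 it was at 12100, 14000, 7540 and 11600, with BMP7 at 536, 298 and 562, with BMP5 at 48.4, 537 and 508 and with BMP4 at 28.4, 7.99 and 9.57. Every one of these samples lay above every control, BMP2 lay above all other groups, and BMP5 and BMP7 overlapped. BMP5 replicate II was about one order of magnitude below the other BMP5 samples. Against the 8 control reads, the ratio of counts was 6570 with BMP2 (95% counting interval 3330 to 15200), 271 with BMP7 (137 to 628), 211 with BMP5 (107 to 490) and 8.91 with BMP4 (4.1 to 22.1), where the intervals cover counting error only. On the log2 scale Pyy rose by 12.06 for BMP2 (SE 0.641, adjusted p 6.73e-12), 7.45 with BMP7 (SE 0.692, adjusted p 3.24e-07), 6.53 with BMP5 (SE 0.692, adjusted p 1.99e-06) and 2.45 with BMP4 (SE 0.692, adjusted p 0.00448). The BMP4 call was lost by edgeR on the recovered reads (log2 2.97, adjusted p 0.0675). The BMP5 change was 7.67 without replicate II and 5.94 without replicate III. Among the 14746 genes tested, the Pyy rise had rank 1 with BMP2, 2 with BMP7, 3 with BMP5 and 406 with BMP4.

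**Figure D1:**
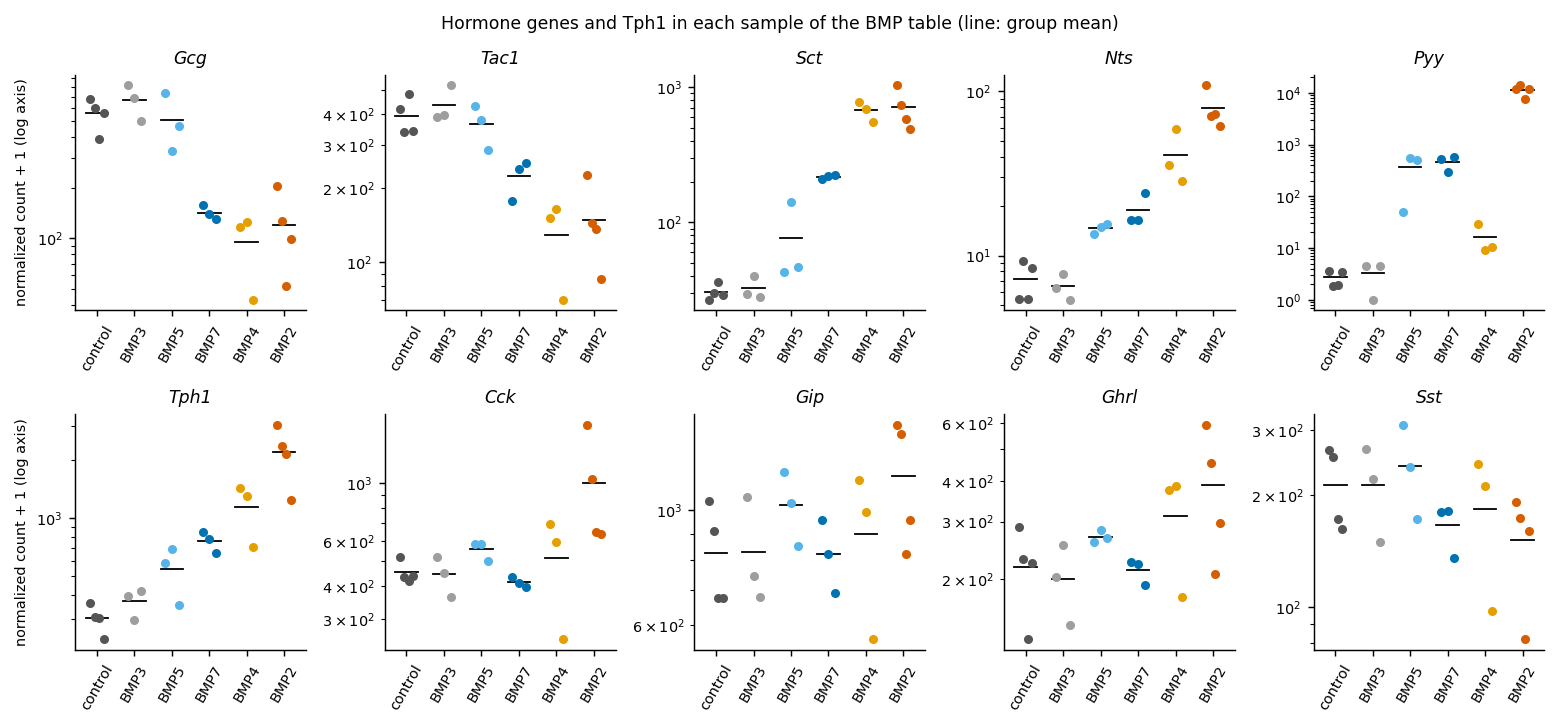
Normalized counts of the 10 members in the 20 samples of the BMP table, 1 panel per gene, on a log axis of value + 1, with 1 point per sample and a bar at the group mean. Gcg and Tac1 lie lower and Sct, Nts and Tph1 higher with BMP2, BMP4 and BMP7, while Pyy runs from 0.83 to 2.66 in controls up to 7540 to 14000 with BMP2.

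Tph1 (ENSMUSG00000040046), the rate-limiting enzyme of serotonin synthesis in enterochromaffin cells, rose with the same 4 ligands. It was at 361, 305, 302 and 235 normalized counts in controls and at 3060, 2380, 2160 and 1240 with BMP2. With BMP4 it was at 1430, 1300 and 708, with BMP7 at 844, 782 and 661 and with BMP5 at 587, 687 and 354. The lowest BMP5 sample lay just below the highest control, and the other ligand samples lay above all controls. The rise was 7.05-fold with BMP2 (log2 2.82, SE 0.263, adjusted p 1.39e-08), 3.68-fold with BMP4 (log2 1.88, SE 0.285, adjusted p 1.23e-05) and 2.55-fold with BMP7 (log2 1.35, SE 0.285, adjusted p 0.00129). With BMP5 it was 1.76-fold (log2 0.81, SE 0.285, adjusted p 0.0423). That call was lost without control replicate III, IV or VI (adjusted p 0.0706, 0.0683 and 0.114), without BMP5 replicate II or III (0.109 and 0.205), without a filter (0.0641) and with equal totals (0.0677).

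The other genes of serotonin and monoamine handling split the ligands differently from Tph1. Of 9 listed genes, Tph1 included, 8 were tested in the BMP table. With BMP4, 7 rose and 1 fell, against 2 and 5 with BMP2 and 2 and 3 with each of BMP5 and BMP7. Their median log2 change was 1.42 for BMP4, -1.38 for BMP2, -0.32 for BMP5 and -0.81 for BMP7. Of all tested genes, 65.1% were called with BMP4 (33.7% higher and 31.4% lower) and 75.1% with BMP2 (36.8% and 38.4%). With BMP5 26.3% of all genes were called, with BMP7 32.4% and with Tgfb 56.7%. Gch1, which makes the cofactor of Tph1, rose with all 4 ligands, by a log2 of 3.46 (BMP2), 2.11 (BMP4), 1.93 (BMP5) and 2.24 (BMP7). Slc6a4, the serotonin reuptake transporter, was at 169.8 ± 38.4 normalized counts in 4 controls, 7.63 ± 1.85 in 4 BMP2 samples and 430 ± 15.6 in 3 BMP4 samples (mean ± SD). Its log2 change was 1.36 under BMP4 and -4.30 under BMP2, -2.30 under BMP5 and -2.28 under BMP7, with adjusted p of at most 0.000954. Maob and Maoa, which break monoamines down, went the same ways, Maob by 1.41 with BMP4 and -5.41 with BMP2. Slc18a2, a vesicular monoamine transporter, fell with BMP2 (log2 -1.50, adjusted p 0.0048) and with BMP4 (-1.27, adjusted p 0.0255). With Tgfb, 2 of 7 tested genes of the list rose and 4 fell (median -0.81), with Gch1 higher by 3.31 (adjusted p 1e-05), Slc6a4 lower by 2.73 (log2 -2.73, adjusted p 1.3e-05) and Maoa at 77.2 TPM without and 8.99 TPM with Tgfb. Enterocytes also express Slc6a4, Maoa and Ddc. Of 6 enterocyte markers, 6 rose with BMP4, and their summed level was 66920 to 108000 in controls and 339000 to 417700 with BMP4. The part of that difference in the serotonin genes was not tested.

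**Figure D2:**
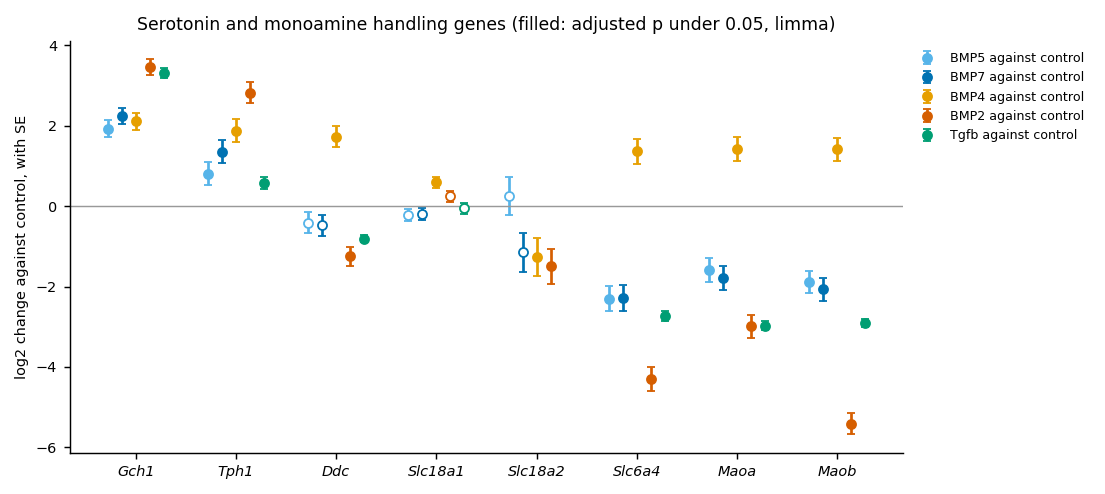
Log2 changes against control of the tested genes of serotonin and monoamine handling, with 1 colour per ligand, bars for the standard error and filled points for an adjusted p under 0.05. Tph1 and Gch1 lie above 0 and are called for all 5 ligands shown, while Slc6a4, Maoa and Maob lie above 0 with BMP4 and below 0 with BMP2, BMP5, BMP7 and Tgfb.

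The remaining hormones changed little beside these. Cck (ENSMUSG00000032532), cholecystokinin of I cells, was at 519, 436, 419 and 439 normalized counts in controls and at 1680, 1040, 646 and 638 with BMP2. All BMP2 samples lay above all controls. The log2 change was 1.03 (SE 0.285, adjusted p 0.00319). Rescaled to equal totals it was 0.57 and no longer called (0.0867). With BMP4 Cck was at 697, 593 and 250, with BMP5 at 584, 580 and 500 and with BMP7 at 436, 412 and 397, and no change passed the test (adjusted p 0.888, 0.529 and 0.788). Ghrl (ENSMUSG00000064177), ghrelin, was at 287, 230, 130 and 223 in controls and at 594, 454, 206 and 296 with BMP2, so the groups overlapped. Its log2 change of 0.77 with BMP2 had an adjusted p of 0.0302. It was 0.122 without control replicate IV, 0.127 without BMP2 replicate II, 0.0866 without BMP2 replicate III, 0.0542 with only the 2 groups in the fit and 0.36 with equal totals. In GENCODE vM21, Ghrl overlaps 2 genes on the opposite strand, Gm26982 and Gm44033, and the strand of counting is not stated, so its values are uncertain. With BMP4 Ghrl was at 375, 386 and 175 (log2 0.49, adjusted p 0.209).

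Gip (ENSMUSG00000014351), the incretin of K cells, was at 1040, 909, 675 and 676 normalized counts in controls and at 1460, 1400, 820 and 956 with BMP2. The groups overlapped, and the log2 change of 0.47 missed the threshold (adjusted p 0.0717). It passed without control replicate II (0.0375) or BMP2 replicate IV (0.0251). The Gip change also passed by DESeq2 (0.0455) and with the replicate number as a block (0.000422), though BMP2 and control were not taken as paired. With BMP4, BMP5 and BMP7 the Gip changes were 0.08, 0.32 and 0.01, with adjusted p of 0.381 or more. Sst (ENSMUSG00000004366), somatostatin of D cells, was at 264, 253, 172 and 161 in controls, at 191, 173, 81.2 and 159 with BMP2, at 242, 211 and 96.9 with BMP4 and at 179, 181 and 135 with BMP7. Its groups overlapped throughout. Sst changes were -0.53 with BMP2 (adjusted p 0.127), -0.28 with BMP4 (0.473) and -0.34 with BMP7 (0.45). With the replicate number as a block, Sst passed the test with BMP4 (-0.44, adjusted p 0.0362) and BMP7 (-0.50, adjusted p 0.0319). Under BMP2, equal totals turned Sst into a called fall (-0.98, adjusted p 0.00757), and so did the replicate block (-0.53, adjusted p 0.00732).

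Counted over the 10 members, BMP2 changed 8, with 6 higher and 2 lower, where 75.1% of all tested genes changed (36.8% higher and 38.4% lower). BMP4 changed 6, with 4 higher and 2 lower, against 65.1% of all genes (33.7% higher and 31.4% lower). BMP7 changed 6, again 4 higher and 2 lower, against 32.4% (19.2% higher and 13.2% lower). BMP5 changed 4, all higher, against 26.3% (16.5% higher and 9.87% lower). Without BMP5 replicate III the count was 2, beside 2515 of 14746 genes. The members' counts with BMP2 and BMP4 are near those shares. Pyy and Nts are among the higher members with all 4 ligands, and both passed the filter only through the groups where they were high. For these 2 genes the counts, and those of groups without overlap below, were partly fixed in advance. The members had a median log2 change of 0.90 (BMP2), 0.28 (BMP4), 0.34 (BMP5) and 0.01 (BMP7), beside medians of all genes between -0.05 and 0.04. Groups did not overlap for 7 (BMP2), 6 (BMP4), 3 (BMP5) and 6 (BMP7) members, where this held for 67.6%, 64.8%, 35.7% and 42.4% of all tested genes in that order. When all samples were given equal totals, the all-gene median moved by -0.46 (BMP2) and -0.40 (BMP4), and the split of called genes went from 5420 higher and 5657 lower to 3601 and 7820 with BMP2, and from 4964 and 4633 to 3080 and 6896 with BMP4. Under it the falls of Gcg and Tac1 and the rises of Sct, Nts, Pyy and Tph1 with BMP2 and BMP4 all kept their calls.

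**Figure D3:**
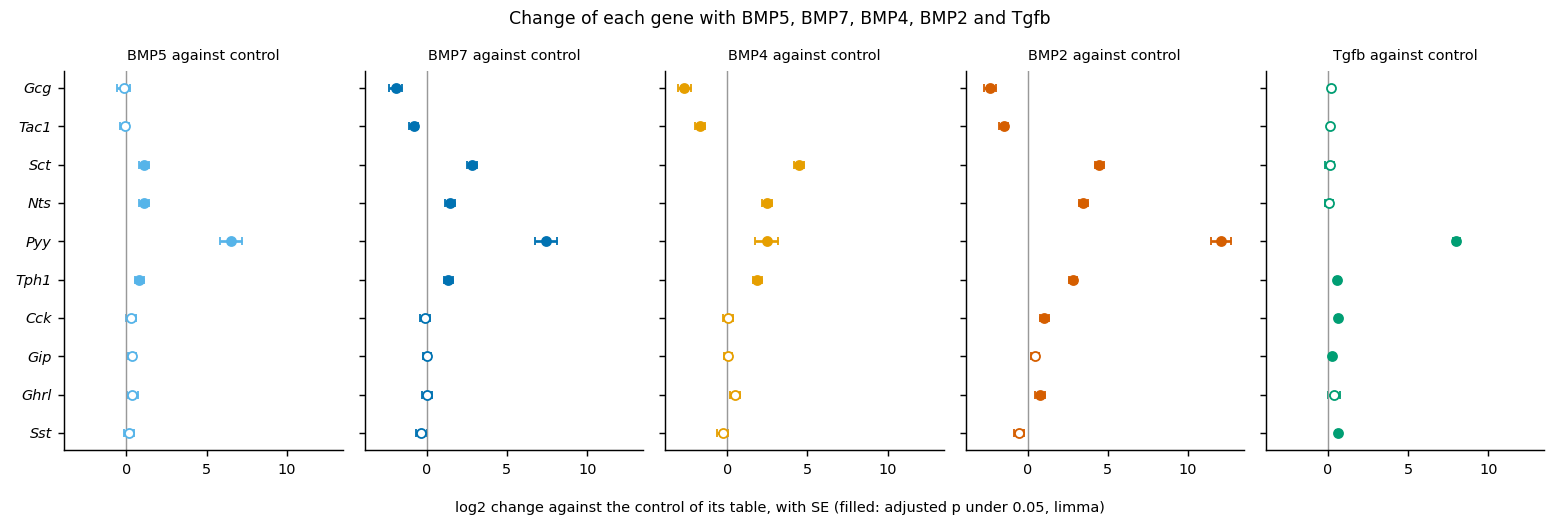
Log2 change of each of the 10 members against its own table's controls for BMP5, BMP7, BMP4, BMP2 and Tgfb, 1 panel per ligand, with filled points for an adjusted p under 0.05, open points otherwise and bars for the standard error. The Pyy point is at 12.06 with BMP2 and 2.45 with BMP4, while Sct is at 4.48 and 4.46 with these ligands.

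BMP3 changed 0 of the 10 members and 0% of all genes. By limma 110 genes had an unadjusted p under 0.05, while edgeR called 0 genes and DESeq2 called 1. Pyy was at 3.56, 0 and 3.5 normalized counts with BMP3, and Gcg at 816, 681 and 501. Member changes ran from -0.11 (Nts) to 0.29 (Tph1), each with an adjusted p of 1, and all 10 members overlapped their controls, where groups did not overlap for 2.53% of all tested genes. The BMP targets Id3 and Smad7 were not called with BMP3 either (log2 -0.14 and -0.10).

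In the Tgfb table, Pyy rose far more than any other member, yet it was not the only one called. It was at 0.611, 0.742 and 0.693 TPM in controls and at 386, 328 and 622 TPM with Tgfb. The log2 change was 8.00 (SE 0.229, adjusted p 3.73e-06), 256-fold on the scale of TPM + 1 and rank 1 of the 12959 genes tested. Cck went from 49.6, 50.7 and 50 TPM to 87.7, 74.8 and 68.1 TPM, and Sst from 12.2, 10.2 and 10.6 TPM to 19.9, 15.4 and 17.3 TPM. Both groups were clear of each other, with rises of 1.52-fold for Cck (log2 0.60, SE 0.0994, adjusted p 0.00264) and 1.54-fold for Sst (log2 0.63, SE 0.116, adjusted p 0.00417). Tph1 went from 4.75, 4.09 and 4.88 TPM to 9.13, 6.33 and 6.7 TPM (log2 0.58, adjusted p 0.0153) and Gip from 78.1, 78.8 and 84 TPM to 97.7, 89.5 and 104 TPM (log2 0.27, adjusted p 0.0238). The Gip call was lost without control replicate I (0.0675) or II (0.0782) and without Tgfb replicate I (0.0608) or III (0.0621), and the Tph1 call without control replicate II (0.0527).

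The other villus-type hormones did not pass the test with Tgfb, nor did the crypt-type ones. Sct was at 7.18, 11.2 and 8.25 TPM without and 6.94, 8.74 and 14.1 TPM with Tgfb (log2 0.11, adjusted p 0.743). Nts was at 2.43, 3.85 and 4.12 TPM without and 2.55, 3.65 and 5.07 TPM with it (log2 0.08, adjusted p 0.808). For both hormones the groups overlapped. Gcg was at 95.4, 105 and 97.3 TPM in controls and 105.1, 119.5 and 123.1 TPM with Tgfb, with no overlap (log2 0.22, adjusted p 0.0608, and 0.023 without Tgfb replicate I). Tac1 changed by 0.12 (adjusted p 0.381) and Ghrl by 0.36 (adjusted p 0.431). In all, 5 of the 10 members rose and 0 fell with Tgfb, against 56.7% of all tested genes called (27.4% higher and 29.3% lower). Groups did not overlap for 6 members, and for 64.6% of all tested genes. Both counts include Pyy, which passed the filter only through the Tgfb samples. The median change of the members was 0.32, beside -0.04 for all genes. As TPM are per length, shares can be given here: Pyy made up 0.214% ± 0.0182 of the summed TPM of the 10 members in controls and 51.7% ± 8.01 with Tgfb (SD, n = 3 each).

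**Figure D4:**
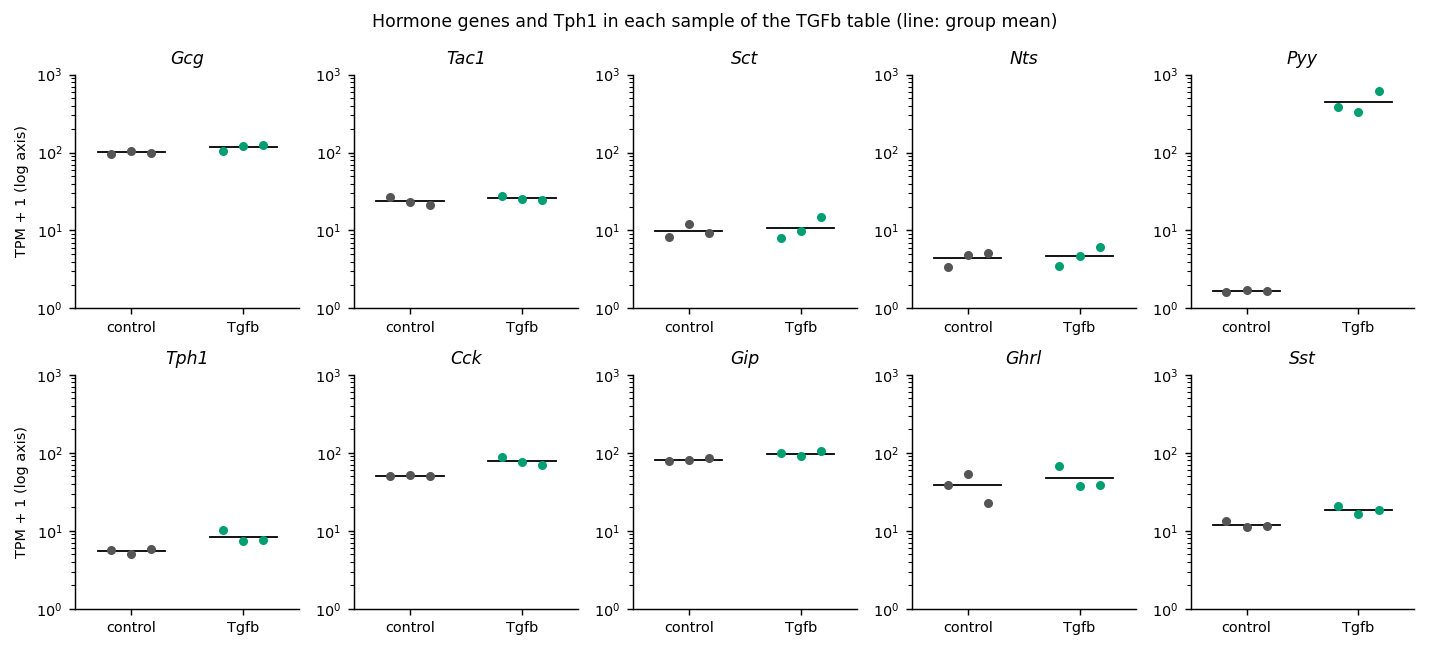
TPM of the 10 members in the 3 control and 3 Tgfb samples, 1 panel per gene, on a log axis of value + 1, with 1 point per sample and a bar at the group mean. Pyy moves from below 1 TPM to 328 to 622 TPM, while Sct, Nts, Tac1 and Ghrl overlap between the groups.

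Set beside each other, the folds of the villus-type hormones were as follows. With BMP2 Pyy rose 4280-fold, Sct 22.4-fold and Nts 11.1-fold. With BMP7 these rises were 174-fold, 7.12-fold and 2.69-fold, and with BMP5 they were 92.5-fold, 2.16-fold and 2.11-fold. With BMP4 Sct rose most, 21.9-fold, beside 5.63-fold for Nts and 5.47-fold for Pyy. With Tgfb Pyy rose 256-fold, and neither Sct nor Nts was called. Pyy was not the only member called with any of these 5 ligands. That alone says little, since 26.3% (BMP5) to 75.1% (BMP2) of all tested genes were called per ligand. Under Tgfb 5 of the 10 members were called, Pyy included, beside 56.7% of all tested genes. The Tgfb calls of Gip and Tph1 were also lost in fits that left out 1 sample. Whether the Tgfb changes differ from those of the BMP ligands was not tested, since the tables were scaled separately. Comparisons with control within the BMP table share their 4 control samples.

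The ligands were also compared directly. BMP2 and BMP4, a closely related pair of ligands, differed in 4 members, all higher with BMP2. Of all genes 66.8% differed, with 4924 higher and 4923 lower with BMP2. Pyy and Nts are among these members, and both passed the filter only through the groups where they were high. For them the calls were partly fixed in advance, here and in BMP2 against BMP7 and BMP4 against BMP7. Pyy was 783-fold higher with BMP2 than with BMP4 (log2 9.61, SE 0.692, adjusted p 6.92e-10). Nts was higher by 0.98 (SE 0.304, adjusted p 0.00854), Cck by 0.97 (SE 0.308, adjusted p 0.00948) and Tph1 by 0.94 (SE 0.285, adjusted p 0.00716), the last 2 with overlapping groups. These 3 calls rested on BMP4 replicate VI, the lowest BMP4 sample in Cck, Nts and Tph1. Without it Pyy was the 1 member called, with adjusted p of 0.106 for Cck, 0.0586 for Nts and 0.0688 for Tph1. No difference passed the test for Sct (fold 1.02, 95% interval 0.642 to 1.62), Gcg (1.25, 0.695 to 2.25) or Tac1 (1.16, 0.751 to 1.78).

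BMP5 and BMP7, another related pair, differed in 0 of 10 members by limma, where 2 of 14746 genes (0.0136%) differed. The interval for Gcg was 1.82- to 6.4-fold higher with BMP5 (log2 1.77, adjusted p 0.492), and for Sct it was 0.185 to 0.498 (log2 -1.72, adjusted p 0.131). Groups did not overlap for 6 members, Gcg, Nts, Cck, Sct, Tac1 and Ghrl, and for 6.54% of all tested genes. With the replicate number as a block the adjusted p of Gcg was 0.0471, and DESeq2 gave 0.00451 for Gcg and 0.0171 for Sct. Without BMP5 replicate III, Sct was lower with BMP5 by 2.27 on the log2 scale with an adjusted p of 0.000532. For Pyy the fold was 0.531 (95% interval 0.181 to 1.56). A p over the threshold does not show that this pair acts alike.

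BMP2 exceeded BMP7 in 5 members, where 62.8% of all genes differed. Pyy was 24.6-fold higher with BMP2 (log2 4.62, adjusted p 1.31e-05), Nts 4.11-fold (adjusted p 1.21e-05), Sct 3.14-fold (0.000187), Tph1 2.77-fold (0.000198) and Cck 2.22-fold (0.00326). The crypt-type hormones did not differ past the threshold, with -0.40 for Gcg (adjusted p 0.399) and -0.66 for Tac1 (adjusted p 0.0601). Tac1 passed without BMP2 replicate II (0.0114) or BMP7 replicate II (0.0447) and with equal totals (0.00803). BMP4 and BMP7 differed in 4 members, where 59.8% of all genes differed. Sct and Nts were higher with BMP4, by 1.62 (adjusted p 0.000444) and 1.07 (adjusted p 0.00859). Pyy was 31.9-fold lower with BMP4 (log2 -4.99, SE 0.74, adjusted p 1.24e-05) and Tac1 1.83-fold lower (log2 -0.87, adjusted p 0.0241). So the ligand with more Sct had less Pyy, and the difference went opposite ways in these 2 hormones. The Tac1 call was lost without BMP4 replicate VI (0.176), BMP7 replicate III (0.0671) or VI (0.0781) and after quantile normalization (0.136), and the Nts call without BMP4 replicate III (0.0653) and with equal totals (0.0577). With the replicate block, Gcg was lower (-0.73, adjusted p 0.0375) and Tph1 higher (0.53, adjusted p 0.00878) with BMP4 than with BMP7, against 0.158 and 0.143 without it. Gcg also passed with equal totals (0.0427), and Tph1 without BMP4 replicate VI (0.0251). With equal totals, the split of all called genes went from 4637 higher and 4625 lower to 2514 and 6971 for BMP2 against BMP7, and from 4190 and 4628 to 2659 and 6652 for BMP4 against BMP7.

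The hormone balance within each sample was described by ratios, which do not depend on the scaling between samples and are compared only between groups, since they are not per length. The sum of Sct and Nts over the sum of Gcg and Tac1 was 0.0383 ± 0.00768 in 4 controls (mean ± SD; range 0.0276 to 0.0459). It was 3.04 ± 0.349 in 4 BMP2 samples (2.64 to 3.49) and 3.62 ± 1.42 in 3 BMP4 samples (2.61 to 5.23). With BMP7 it was 0.644 ± 0.0253 and with BMP5 0.115 ± 0.0906 (SD, n = 3 each), the latter from 0.0471 to 0.218. All samples of these 4 ligands lay above the control range. With BMP3 it was 0.0337, and it went from 0.101 ± 0.0201 to 0.0963 ± 0.0307 with Tgfb. Pyy over Gcg was 0.00302 in controls, 110 in the BMP2 group, 3.32 in BMP7, 0.93 in BMP5 and 0.179 in BMP4, and it went from 0.00687 to 3.82 with Tgfb. So BMP4 and BMP2 gave overlapping ratios of Sct and Nts to Gcg and Tac1 and far apart ratios of Pyy to Gcg. With Tgfb the first ratio overlapped its controls and the second did not.

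Dividing each member by the sum of Chga and Chgb, granins that are packed into the secretory granules of most enteroendocrine cells, compares the hormones with the endocrine content of the sample. The granin sum was 7218 ± 1262 in 4 controls, 11500 ± 3988 in 4 BMP2 samples and 7368 ± 2934 in 3 BMP4 samples (mean ± SD). Relative to control, the BMP2 ratio was 4340-fold for Pyy, 14.9-fold for Sct, 7.79-fold for Nts and 4.6-fold for Tph1. It was 7.54-fold lower for Gcg, 4.31-fold lower for Tac1 and 2.09-fold lower for Sst, while Cck, Ghrl and Gip were at 1.34, 1.1 and 0.912 of control. With BMP4 the ratio was 23.8-fold for Sct, 6.36-fold for Nts, 3.81-fold for Tph1 and 8.42-fold for Pyy, and 0.157 and 0.318 of control for Gcg and Tac1. With Tgfb it was 552-fold for Pyy, and the other 9 members lay between 0.912 and 1.34 of control. With BMP5 it was 195-fold for Pyy, 2.21-fold for Sct and 1.89-fold for Nts, and 0.776 and 0.799 of control for Gcg and Tac1. With BMP7 it was 273-fold for Pyy, 7.4-fold for Sct and 2.91-fold for Nts, and 0.254 and 0.589 of control for Gcg and Tac1. These ratios carry no test.

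**Figure D5:**
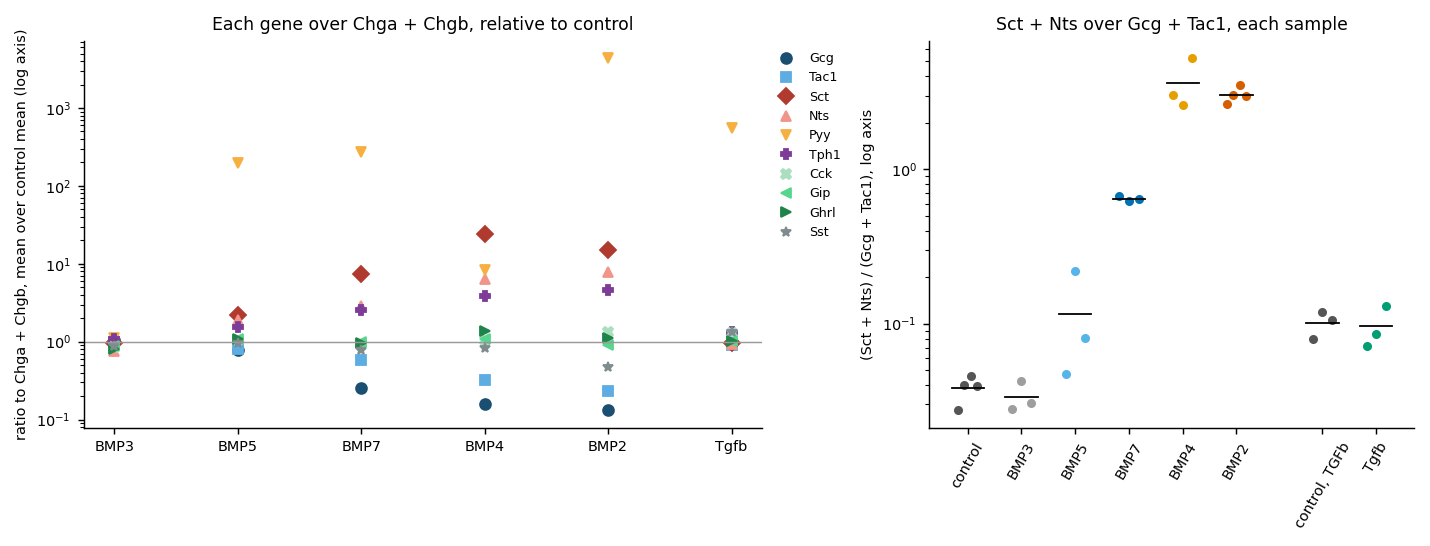
Left, mean ratio of each member to the sum of Chga and Chgb in each ligand group, divided by that of the control group of the same table, and right, Sct plus Nts over Gcg plus Tac1 in each sample with a line at the group mean, both on log axes. With BMP2 Pyy is at 4340, Sct at 14.9 and Gcg at 0.133, and with Tgfb Pyy is at 552 while the other 9 members lie between 0.912 and 1.34, and on the right the BMP2 and BMP4 samples lie between 2.61 and 5.23.

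Transcription factors of the enteroendocrine lineage were measured in the same samples. Neurog3, the transcription factor of endocrine progenitors, was at 137 normalized counts in controls (110 to 193) and at 1.22 under BMP2, 1.16 under BMP4, 21.3 under BMP7 and 72.7 under BMP5. It fell with each ligand, with a log2 change of -5.93 for BMP2 (adjusted p 4.39e-12), -6.13 for BMP4 (5.04e-11), -2.61 for BMP7 (8.37e-06), -0.91 for BMP5 (0.0482) and -0.64 for Tgfb (0.0123). Neurod1, a factor of later endocrine cells, rose by 1.60 with BMP2 (adjusted p 1.34e-07) and 0.76 with BMP4 (0.00183). Onecut3, a homeobox factor, rose by a log2 of 3.86 (BMP2), 3.31 (BMP5), 3.67 (BMP7) and 2.31 (Tgfb), and its change with BMP4 was 0.73 (adjusted p 0.181). Mnx1, another factor of the list, fell by 1.08 with Tgfb, and it also fell with BMP2, BMP4 and BMP7. Of the 22 enteroendocrine transcription factors listed, 5 rose and 12 fell with BMP2, 1 and 16 with BMP4, 3 and 2 with BMP5, 3 and 8 with BMP7, and 3 and 4 of 14 tested with Tgfb. The medians were -0.62, -1.27, -0.25, -0.61 and -0.19 in that order, and the shares of all genes called were 75.1%, 65.1%, 26.3%, 32.4% and 56.7%. With BMP2, BMP5 and Tgfb the share of factors called is near that of all genes. Of all genes, 36.8% rose and 38.4% fell with BMP2, and 33.7% and 31.4% with BMP4. These shares were 16.5% and 9.87% with BMP5, 19.2% and 13.2% with BMP7, and 27.4% and 29.3% with Tgfb.

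Among genes of granins and prohormone processing, more rose than fell with BMP2. Chga rose by 1.31 (adjusted p 0.000402) with BMP2 and by 0.40 with Tgfb (0.0326), and its changes with BMP4 (0.50, adjusted p 0.16), BMP5 and BMP7 were not called. Chgb was not called with any ligand, with 0.49 for BMP2 (adjusted p 0.0843). Snap25, a protein of vesicle fusion, rose by a log2 of 2.76 (BMP2), 1.97 (BMP4), 1.04 (BMP5) and 1.13 (BMP7). Ptprn2, of the secretory granule membrane, fell with BMP2 (-0.96), BMP4 (-0.86) and BMP7 (-0.68), and Rab3c, of vesicle traffic, fell by 0.87 with BMP4. Pam, which amidates peptide hormones such as Pyy and Cck, rose by a log2 of 2.10 (BMP2), 0.39 (BMP4), 0.87 (BMP5), 0.72 (BMP7) and 1.11 (Tgfb). Of 18 listed genes of granins and prohormone processing, 16 were tested in the BMP table. With BMP2 11 rose and 1 fell (median 1.10), with BMP4 4 and 2 (0.36), with BMP5 2 and 0 (0.29) and with BMP7 2 and 1 (0.10). With equal totals the counts were 7 and 2 with BMP2, and 1 and 3 with BMP4, where the median turned to -0.03. With Tgfb 3 of 11 tested rose and 0 fell (median 0.19). The shares of all tested genes called were 75.1% (BMP2), 65.1% (BMP4), 26.3% (BMP5), 32.4% (BMP7) and 56.7% (Tgfb). With BMP2, 36.8% of all genes rose and 38.4% fell, and the share of listed genes called is near that of all genes. With equal totals 3601 of all genes rose and 7820 fell with BMP2, and 3080 and 6896 with BMP4.

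Most other gut peptide genes were too low to test. Of 14 listed, 3 were tested in the BMP table and 2 in the Tgfb table, and Adm (adrenomedullin) was the 1 called gene, higher by 1.83 with BMP2 (adjusted p 0.000133), 1.53 with BMP4 (0.00179) and 0.86 with Tgfb (0.0435), with 0 called for BMP5 and BMP7. The Tgfb call was lost after quantile normalization and in 5 of 6 fits that left out 1 sample. Of 12 listed nutrient and bile acid sensors, 7 were tested, and 1 rose and 4 fell with BMP2 and 1 and 3 with BMP4. With BMP5 1 rose and 2 fell, with BMP7 0 and 3, and with Tgfb 1 and 1 of 3. Beside these 2 lists, the shares of all tested genes called were 75.1% (BMP2), 65.1% (BMP4), 26.3% (BMP5), 32.4% (BMP7) and 56.7% (Tgfb). Trpa1, an irritant sensor of enterochromaffin cells, rose by 1.01 with BMP2 with overlapping groups. Slc5a1, the glucose transporter shared with enterocytes, fell by 4.13 with BMP2 and rose by 2.09 with BMP4. Gper1, an estrogen receptor, fell with BMP2 (-2.97), BMP4 (-1.59), BMP5 (-2.15) and BMP7 (-1.94). Ffar4, a receptor for long-chain fatty acids, rose by 0.90 with BMP5 and 0.81 with Tgfb, and it fell with BMP2 and BMP4.

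Other cell types moved with the ligands too. Of 6 crypt stem cell markers, 6 fell with BMP2, BMP4 and Tgfb, 3 with BMP7 and 1 with BMP5. Their summed level was 136000 to 163300 in controls, 10050 to 20270 with BMP2, 6609 to 8802 with BMP4, 49910 to 59520 with BMP7 and 61110 to 123200 with BMP5, and it went from 2840 to 3325 TPM down to 361.3 to 373.4 TPM with Tgfb. Of 8 enteroendocrine markers, 5 rose and 2 fell with BMP2, 2 and 2 with BMP4, 0 and 1 with BMP5, 0 and 2 with BMP7 and 2 and 1 with Tgfb. Their sum was 6725 to 9779 in controls, 8029 to 18880 with BMP2 and 4974 to 11320 with BMP4. Of 6 Paneth markers 6 fell with BMP2, and 0 passed with BMP4, BMP5 or BMP7. Of 6 goblet markers 2 rose and 3 fell with BMP2, 4 rose with BMP4, 1 fell with BMP5 and 4 fell with Tgfb. Of 6 tuft markers 4 rose with BMP2, 3 rose and 1 fell with BMP4, 2 rose with BMP5 and 3 with BMP7. With Tgfb, 1 Paneth marker rose and 2 fell, 4 enterocyte markers rose and 2 fell, and 2 of 4 tested tuft markers rose. Of 6 enterocyte markers 2 rose and 2 fell with BMP2, 1 and 1 with BMP5 and 1 and 2 with BMP7. Mesenchymal markers were below the filter, with sums of 0.826 to 25.7 normalized counts in controls and 33.3 to 54.2 with BMP2, and Dcn and Lum were at 0 in every organoid group. Neuron and glia markers summed to 133.6 to 156 in controls and 573 to 679.6 with BMP2, with Sox10 at 0. Of the 3 tested, 1 rose with each of BMP2, BMP5 and BMP7 and 2 fell with BMP4. Of 3 tested immune markers, 1 rose and 2 fell with BMP2, 1 rose with BMP4 and BMP5, and 1 rose and 1 fell with BMP7. With Tgfb, 1 of 1 tested neuron marker (Ret) rose and 0 of 1 tested immune marker was called. For all these marker counts, the shares of all tested genes called were 75.1% (BMP2), 65.1% (BMP4), 26.3% (BMP5), 32.4% (BMP7) and 56.7% (Tgfb). The part of these cell types in the hormone values was not tested.

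Across the 20 samples of the BMP table, genes with a pattern like a member's were ranked by Pearson's r of log2(value + 1). The samples fall into 6 treatment groups, so r mostly reflects the groups and carries no p. Among the genes most like Pyy were Anxa1 (r = 0.993) and Myo1c (0.992), and it was less like Tph1 (0.782), Nts (0.777), Sct (0.682) and Chga (0.639). Anxa1 averaged 724 normalized counts in controls, 55320 in the BMP2 group, 8260 in BMP7, 7317 in BMP5 and 1490 in BMP4, the same order of groups as Pyy. Sct was most like Id3 (0.975), Eno3 (0.971) and Sstr1 (0.970), and also like Nts (0.934) and Tph1 (0.921), and it ran against Neurog3 (-0.962) and Gcg (-0.884). Nts was most like Trim40 (0.981), Plin2 (0.979) and Trp53inp2 (0.973), and Tph1 like Snap25 (0.975), Ascc3 (0.973) and Akap13 (0.952). Thus Sct and Nts varied alike, and Pyy less so.

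Gcg was most like Ptprn2 (0.939), Nefm (0.933) and Traf5 (0.928), and like Tac1 (0.897) and Neurog3 (0.897). Tac1 was most like Rfx6 (0.959), Limch1 (0.957) and Ptprn2 (0.955). Cck was most like Scg2 (0.914), Snord3b1 (0.903) and Chga (0.903), Gip like Scg2 (0.957), Trpa1 (0.896) and Rgs2 (0.884), and Ghrl like Trpa1 (0.895), Atp6v1f (0.894) and Snord3b1 (0.887). These 3 hormones were therefore nearest to granins or Trpa1, which endocrine cells express. Sst stood apart, with Rbp4 (0.920), Iapp (0.913) and Tmem38b (0.833) nearest to it.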

How the data were processed

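mRNA libraries (KAPA mRNA Hyperprep) were sequenced as 75 nt single-end reads, per the labels' protocols. The sequencing runs mentioned there are not assigned to samples. The submitters' processing notes name Trim Galore, Salmon, DESeq2 and GRCm39 without versions or roles. The strand of counting is not given in the sources used here. The BMP table as deposited holds a signal per gene that is a read count divided by 1 size factor per sample, with 3 significant digits: 100% of 180721 low values (up to 20 reads) were whole reads within 0.1 read, so reads were recovered for edgeR and DESeq2. The Tgfb and mesenchymal tables as deposited hold TPM, with columns that sum to 1000000. All 28 samples were mapped by title.

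The main test was limma 3.58.1 (R 4.3.3, two-sided, mean-variance trend) on log2(value + 1), with 1 fit over the 6 groups of the BMP table (mean of at least 10, 14746 of 29413 genes) and 1 over the Tgfb table (mean of at least 1 TPM, 12959 of 55416 genes), and Benjamini-Hochberg adjustment over all tested genes. Equal totals means that each sample was rescaled to the same sum. Alternatives were edgeR 4.0.16 and DESeq2 1.42.0 on recovered reads, other scalings, pseudocounts and filters, fits on 2 groups, a replicate block and leaving out each sample. The fits were also run on simulated data in which few genes changed, with as many rising as falling. Those data do not test the fits where most genes change, as with BMP2 and BMP4. Same-numbered samples of different groups were taken as paired where all correlations of their deviations from the group means were above 0.1, which held for BMP3, BMP4, BMP5 and BMP7 against control, BMP5 against BMP7 and BMP4 against BMP7, and not for comparisons with BMP2 (lowest r -0.050) or for Tgfb (lowest r -0.019). The pairing comes from the numbers in the titles. The main fit held no replicate block, so its p-values ignore the pairing also in the comparisons taken as paired. Where the block moved a call there, its values are given with the result.

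The members and gene lists were chosen with earlier results of these data known. All members are reported. From each list the called gene with the largest rise and the one with the largest fall per ligand were named, plus Chga, Chgb, Neurog3 and Neurod1, and the 3 genes most like each member. A few genes that this rule names are not reported here. A gene named so for 1 ligand may be given with its values for the others. Promoters were RefSeq windows of GRCm38.p6, matched by symbol for 10 of 10 members.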

Additional observations from a re-analysis of the deposited data

Results flagged for a closer look

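The table of Pdgfra-positive mesenchymal cells holds no control samples and no replicates, and it enters no comparison. In it Cck was at 8.774 TPM in freshly isolated cells and 14.36 TPM in the immortalised, sorted line, a hormone signal in data outside the main measurement. Gcg, Gip, Pyy, Sct, Sst and Tph1 are listed at 0 in both samples. Ghrl was at 0.167 and 0.262 TPM, and Nts (0.482 TPM) and Tac1 (0.164 TPM) were above 0 in the fresh sample only. In the 24 groups of 4 samples examined (10 members and 2 other genes in the control and BMP2 groups), no sample stood apart by Dixon's criterion, which chance would meet in about 1 in 20 groups.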

How the results depend on the processing

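Over the 75 results reported, alternatives gave 1215 values, of which 1109 kept direction and side of the threshold, 39 lost the call, 23 gained one and 44 changed sign. The 42 called results had 0 sign changes. The sign changes were all in changes that were not called, and their cause was not tested. With the same total in every sample, the BMP4 changes became -0.344 for Cck and -0.315 for Gip, the BMP7 changes -0.063 for Gip and -0.052 for Ghrl, and Sct between BMP2 and BMP4 -0.032. Quantile normalization gave 0.009 for Sst with BMP4, -0.050 for Gip with BMP7 and 0.034 for Gcg between BMP2 and BMP7. With BMP7, edgeR gave -0.017 for Ghrl and DESeq2 -0.014 for Gip and -0.039 for Ghrl.

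With the replicate block, signs changed for Cck (-0.033) and Gip (-0.015) with BMP4 and for Gip (-0.092) and Ghrl (-0.191) with BMP7. Against control, the number of members called was then 10 for BMP2, 7 for BMP4, 4 for BMP5 and 7 for BMP7. It was 0 for BMP3 and 6 for Tgfb. Of 14746 genes tested, the block called 11858 for BMP2, 10582 for BMP4, 5738 for BMP5, 6689 for BMP7 and 0 for BMP3. With Tgfb it called 7613 of 12959 genes. In proportion, the members' counts with BMP4, BMP5 and Tgfb are near those of all genes. Between ligands, 1 member was called for BMP5 against BMP7 and 8 for BMP2 against BMP7. For BMP2 against BMP4 and BMP4 against BMP7 there were 6 each. All-gene calls in these 4 comparisons were 6, 10300, 10712 and 9976 in that order. Comparisons with BMP2 and Tgfb were not taken as paired, since not every same-number correlation was above 0.1. For BMP2 and control these were 0.249, 0.087, 0.491 and 0.361 (II, III, IV and VI), and replicate III correlated better with another number (0.122). For BMP4 and control, taken as paired, replicate VI also did so (0.168 with its own number and 0.181 with another). In the comparisons with BMP2 the block gave calls for Gip (0.473, adjusted p 0.000422) and Sst (-0.526, adjusted p 0.00732) against control. It also called Tac1 between BMP2 and BMP7 (-0.736, adjusted p 0.0185) and Gcg with Tgfb (0.222, adjusted p 0.0328). Among the changes reported, the block moved no other call than these and those in the report. DESeq2 called 2 members for BMP5 against BMP7, beside 23 of 14731 genes, and it called Gip with BMP2 (0.499, adjusted p 0.0455). The fit on 2 groups called 2 members for BMP5 against control, beside 3966 of 14745 genes. In that fit Sct had an adjusted p of 0.0679 and Nts of 0.05.

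Leaving out 1 sample at a time gave 7 to 9 members called for BMP2 and 6 to 7 for BMP4. It gave 2 to 4 for BMP5 and 5 to 6 for BMP7. For BMP2 against BMP4 it gave 1 to 4, for BMP5 against BMP7 0 to 1 and for BMP2 against BMP7 5 to 7. For BMP4 against BMP7 it gave 3 to 4, and for Tgfb 3 to 5 (3 without control replicate II). Over all tested genes, calls ran from 10701 to 10945 for BMP2 and from 8985 to 9296 for BMP4. For BMP5 they ran from 2515 to 4298 and for BMP7 from 3517 to 4673. Between BMP2 and BMP4 they ran from 9180 to 9745, and between BMP5 and BMP7 from 0 to 9. BMP2 against BMP7 had 8391 to 9172, BMP4 against BMP7 8066 to 8573 and Tgfb 6318 to 6790. With BMP4 the range of the log2 change was -0.229 to 0.508 for Cck, -0.119 to 0.390 for Gip and -0.533 to 0.123 for Sst. Ghrl with BMP4 was called without BMP4 replicate VI (0.860, adjusted p 0.0349). With BMP5 it was -0.474 to 0.102 for Gcg, -0.039 to 0.382 for Sst and -0.247 to 0.048 for Tac1. With BMP7 it was -0.107 to 0.127 for Gip and -0.210 to 0.169 for Ghrl, and with BMP3 -0.249 to 0.028 for Nts. Between BMP2 and BMP4 it was -0.174 to 0.676 for Gcg, -0.173 to 0.188 for Sct and -0.180 to 0.444 for Tac1, and between BMP5 and BMP7 -1.501 to 0.222 for Pyy. With Tgfb it was -0.147 to 0.315 for Sct and -0.115 to 0.272 for Nts. The size of the Pyy change depends on the pseudocount, since controls are near 0: with 5 in place of 1 it was 10.695 for BMP2, 1.473 for BMP4, 5.206 for BMP5, 6.088 for BMP7 and 6.255 for Tgfb. Depth limits Pyy and Nts in controls to a few reads per sample.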
